A study of Mus musculus with 12 samples.

Results

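The genes that drive entry into mitosis, chromosome segregation and cytokinesis were followed in mouse 3T3 fibroblasts with and without an inducible Ier2 construct. Of 48 such genes asked for by symbol, 47 had a named probe set among the 16475 probe sets tested on Affymetrix Mm430_2.0 arrays, each gene with 1 probe set. Ccnb1, the cyclin B1 gene, had none and was not analysed here. The 47 genes were sorted by textbook role into 9 groups: mitotic entry, mitotic kinases, the spindle checkpoint, mitotic exit, the chromosomal passenger complex, the kinetochore, the spindle, cytokinesis and chromosome structure.

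The study examined the response of fibroblasts to IER2, an immediate early protein, and hybridised 12 arrays in 4 groups of 3 labelled biological replicates. 3T3-ind-IER2 #11 cells are 1 clone of NIH 3T3, an immortalised mouse embryonic fibroblast line, that carries the plasmids pNEBR-R1 and pNEBR-Ier2-hygro. In this RheoSwitch system the ligand RSL lets a synthetic receptor pair switch on the Ier2 construct, and these cells were given either 200 nM RSL or a matching volume of DMSO and were harvested after 24 h. Parental NIH 3T3 cells carried neither plasmid and received the same treatments for the same time. The labels list G418 and hygromycin in the medium of all 4 groups. The paper's methods use these drugs to select transfected cells and do not mention them for parental cells. Whether parental cells were kept in them is not settled here. Because the inducible cells are a single clone, what belongs to the construct and what belongs to the clone cannot be told apart in comparisons between the lines.

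As background, cyclin B bound to the kinase Cdk1 starts mitosis once Cdc25 phosphatases have removed inhibitory phosphates from Cdk1. Aurora and Polo kinases then build the spindle, the checkpoint proteins hold the cell until every kinetochore is attached, and the anaphase-promoting complex with Cdc20 degrades securin and cyclin B so that sisters part and the cell divides. Most of these genes are transcribed late in the cell cycle, in G2 and mitosis, through promoters in which the MuvB complex binds a short element called the cell cycle homology region, often near CCAAT boxes bound by NF-Y. In a dividing culture their RNA therefore follows both how many cells are in those phases and how much each cell makes, and from bulk RNA fewer cells in a phase and less RNA per cell cannot be told apart.

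To show this shared promoter layout, RefSeq promoters of build GRCm38.p6 (250 bases before to 50 bases after the annotated start) were searched on both strands for TTTGAA, the core of the cell cycle homology region, its variant TTCGAA, and CCAAT. Matches of the last can share an end base with either element. The first listed promoter of each gene was read, and 40 of the 48 genes matched. TTTGAA stood in 28 of 40 (70%) against 18.1% of 27025 genes in the table, TTCGAA in 4 of 40 (10%) against 1.57%, and CCAAT in 31 of 40 (77.5%) against 37.9%. Either form of the element together with CCAAT was found in 27 of 40 (67.5%) against 7.70% of all genes. Either form lay within 50 bases of the start in 27 of 40 (67.5%) against 5.29%. Promoters of 6 genes are printed from 120 bases before to 30 bases after the start, 5′ to 3′ on the strand of the gene, because the results below turn on these genes. Capitals mark motif matches in either orientation, so that CCAAT on the other strand reads ATTGG.
Prc1: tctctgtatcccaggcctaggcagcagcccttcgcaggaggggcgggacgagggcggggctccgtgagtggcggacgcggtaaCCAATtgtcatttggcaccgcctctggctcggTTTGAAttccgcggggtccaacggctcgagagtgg
Ccnb2: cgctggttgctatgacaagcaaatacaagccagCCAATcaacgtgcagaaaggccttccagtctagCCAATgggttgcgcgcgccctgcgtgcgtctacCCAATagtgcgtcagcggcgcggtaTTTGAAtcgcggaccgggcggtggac
Ect2: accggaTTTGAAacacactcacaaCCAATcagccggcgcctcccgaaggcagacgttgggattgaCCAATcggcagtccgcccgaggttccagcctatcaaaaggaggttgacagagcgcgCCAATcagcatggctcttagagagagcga
Cdk1: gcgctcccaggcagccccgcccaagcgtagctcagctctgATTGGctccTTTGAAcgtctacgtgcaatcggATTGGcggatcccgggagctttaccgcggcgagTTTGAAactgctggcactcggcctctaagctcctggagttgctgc
Aurka: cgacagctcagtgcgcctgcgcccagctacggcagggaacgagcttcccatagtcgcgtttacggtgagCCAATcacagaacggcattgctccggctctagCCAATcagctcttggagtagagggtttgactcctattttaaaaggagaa
Nuf2: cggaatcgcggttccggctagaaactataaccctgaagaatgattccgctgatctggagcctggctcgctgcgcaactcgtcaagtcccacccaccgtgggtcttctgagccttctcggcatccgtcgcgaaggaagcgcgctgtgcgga
Prc1, Ccnb2 and Cdk1 show TTTGAA next to the start with CCAAT upstream of it. Ect2 shows its TTTGAA further upstream, ahead of 3 CCAAT boxes, and has another match just beyond the printed stretch, as Aurka does. Nuf2 shows none of the 3 motifs. Prc1 is on chr7:80294331-80294480 (plus strand), Ccnb2 on chr9:70421525-70421674, Ect2 on chr3:27153849-27153998, Cdk1 on chr10:69352883-69353032, Aurka on chr2:172370541-172370690 and Nuf2 on chr1:169531435-169531584, the last 5 on the minus strand. A match says that these letters are present and nothing about binding.

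**Figure D1:**
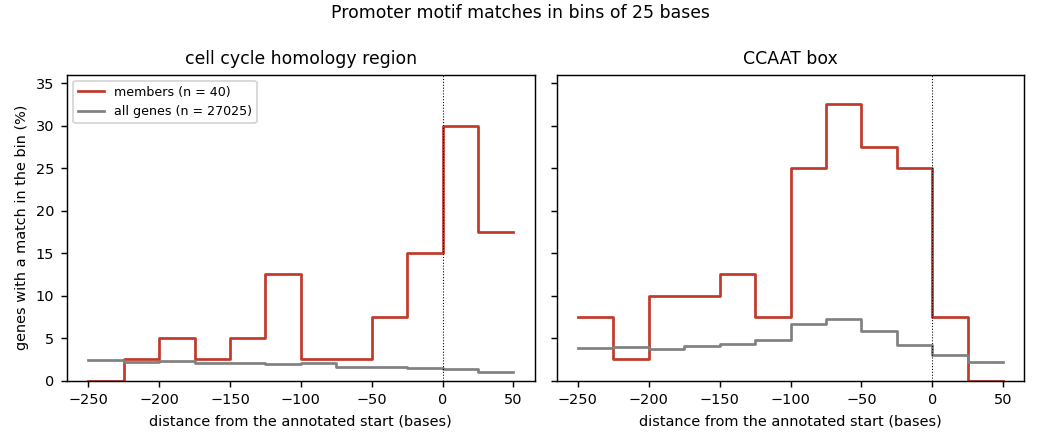
Share of genes (%) with a match in bins of 25 bases from 250 before to 50 after the annotated start. The left panel shows either form of the cell cycle homology region (TTTGAA or TTCGAA) and the right panel CCAAT. Red lines give 40 mitotic genes and grey lines 27025 genes. The first 25 bases after the start held TTTGAA or TTCGAA in 30% of the mitotic genes. CCAAT was densest between 75 and 50 bases before the start, in 32.5%.

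The arrays were close in scale, with medians of log2 expression between 7.03 and 7.06. Their quartiles spread more, the first from 6.23 to 6.30 and the third from 8.38 to 8.44. The part of this spread in the differences below was not tested beyond repeated quantile normalization. Over all probe sets, pairs of arrays correlated at 0.998 to 0.999 within a line, whether or not the treatment was shared, and at 0.991 to 0.993 across lines. The probe set of Ier2 itself read 9.07, 9.04 and 8.96 in 3T3-ind-IER2 #11 cells given DMSO and 8.50, 8.48 and 8.66 in those given RSL, a log2 difference of -0.47 (standard error 0.05, adjusted p = 4.64e-05, limma). In parental cells the Ier2 probe set read 8.60, 8.61 and 8.53 under DMSO and 8.82, 8.74 and 8.67 under RSL. Its signal was thus lower where the labels give induction, and of the 4 groups it was highest in inducible cells labelled DMSO. Whether its probes can read the construct is not known here, so it does not check the labels, and the treatments below are as labelled. Of 12 fibroblast markers, 10 were above every array median, whereas of 7 epithelial and 7 endothelial markers none was, with Epcam, Cdh1, Pecam1 and Cdh5 among those near the floor. Of 8 macrophage markers 2 were above the median, and the defining gene Ptprc was near the floor.

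All 47 mitotic genes were well expressed in these dividing cultures. Their group means ran from 7.85 to 11.90 on the log2 scale, and every gene was above the median of every array in all 4 groups. Replicates lay close together, with standard errors of a difference between groups from 0.030 to 0.059 and a median of 0.037.

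Under the label RSL, 2 of 47 genes changed in 3T3-ind-IER2 #11 cells, Prc1 and Ccnb2, and both fell. Calls rest on limma with Benjamini-Hochberg adjustment over all 16475 probe sets and a threshold of 0.05. The 2 calls make 4.26% of the genes, against 2.54% of all probe sets called in either direction and 1.21% called lower. With the lowest 40% of mean expression left out, 513 of 9885 probe sets were called, 260 of them lower. Of the 47 genes 2 were called there too, so nothing particular to them is read from this count. The median log2 difference over the 47 genes was -0.03 against 0.00 over all probe sets, and the single values ran from -0.20 to 0.13. In all, 34 of 47 genes (72.3%) were below 0, against 47.8% of all probe sets and 50.2% of those left once the lowest 40% of mean expression were set aside.

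Prc1, which bundles antiparallel microtubules at the spindle midzone and is needed for cytokinesis, gave the clearest difference. It read 9.77, 9.72 and 9.74 in inducible cells given DMSO and 9.51, 9.58 and 9.53 in those labelled RSL. The lowest DMSO array was above the highest RSL array, and the difference was -0.20 (standard error 0.03, adjusted p = 0.00266, limma), a signal 13.2% lower. It stayed between -0.23 and -0.19 and past the threshold whichever array was left out. Ccnb2, the cyclin B2 gene, read 8.88, 8.84 and 8.85 under DMSO and 8.76, 8.74 and 8.67 under RSL. The groups did not overlap, and the difference was -0.13 (standard error 0.03, adjusted p = 0.0454, limma). The Ccnb2 call was marginal. It ended without any 1 of the 6 inducible arrays, without parental DMSO replicate 3 or without parental RSL replicate 1 or 2, with adjusted p between 0.0536 and 0.193 in those fits.

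The other 45 genes did not pass in inducible cells. At an unadjusted p under 0.05, 9 of 47 genes were lower (19.1%, against 6.04% of all probe sets and 9.28% with the lowest 40% left out) and 3 were higher (6.38%, against 6.29%). Without overlap of the arrays, 13 genes (27.7%) were lower and 3 (6.38%) higher in RSL, against 8.75% and 9.34% of all probe sets. The share without overlap was not taken with the lowest 40% left out. The counts of lower genes rested partly on single arrays. Without RSL replicate 3, 28 genes were below 0 and 4 were lower at an unadjusted p under 0.05, and without DMSO replicate 1 these were 30 and 2. RSL replicate 3 was also the array on which the mitotic genes were lowest as a group, with a mean deviation of -0.06 from each gene's own mean over all arrays and 38 of 47 genes below it.

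Among the genes of mitotic entry, 5 of 6 were below 0 in inducible cells. Cdk1, the mitotic kinase itself, read 11.70, 11.63 and 11.65 under DMSO and 11.58, 11.61 and 11.56 under RSL. The arrays did not overlap, but the difference of -0.08 (standard error 0.03) had an adjusted p of 0.29 in limma. Cdc25b, an activator of Cdk1, was at -0.09 (adjusted p = 0.276), and Cdc25c, its relative, at 0.09 (adjusted p = 0.386). Ccna2, the cyclin A2 gene, was at -0.03. Foxm1, a transcription factor of the late cell cycle genes, was at -0.05 with a 95% interval from -0.14 to 0.04.

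The mitotic kinases and checkpoint genes differed little. Plk1, the Polo kinase of mitotic entry and exit, was at 0.03 (95% interval -0.05 to 0.10), and the 4 kinases ran from -0.02 to 0.03. The 5 spindle checkpoint genes ran from -0.03 to 0.06, with Bub1b, whose product inhibits Cdc20, at the top (adjusted p = 0.448). Among the genes of mitotic exit, Cdc20, the activator of the anaphase-promoting complex, was at 0.01 (95% interval -0.07 to 0.08). Ube2c, the ubiquitin-conjugating enzyme of that complex, read 11.78, 11.73 and 11.69 under DMSO and 11.59, 11.59 and 11.66 under RSL. These arrays did not overlap, with a difference of -0.12 (adjusted p = 0.22).

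All 4 genes of the chromosomal passenger complex were below 0, between -0.09 and -0.03. Birc5, its survivin subunit, was at -0.09 (adjusted p = 0.318) and Aurkb, its kinase, at -0.07 (95% interval -0.16 to 0.02). At the kinetochore, Ndc80 and Nuf2, which pair in the complex that grips microtubules, were at 0.13 (adjusted p = 0.162) and 0.10 (adjusted p = 0.175), whereas Cenpa, the centromeric histone, was at -0.09 (adjusted p = 0.35). Ndc80 was called higher without inducible DMSO replicate 3, at 0.18, and with array weights, at 0.15. Of the 6 spindle genes Tpx2, which activates Aurora A, was the nearest to a call, at -0.06 (adjusted p = 0.41). Apart from Prc1, the cytokinesis genes nearest to a call were Anln, an actin-binding scaffold of the contractile ring, at -0.09 (adjusted p = 0.285) and Ect2, the exchange factor that activates RhoA there, at -0.12 (adjusted p = 0.471). Mki67, the Ki-67 gene of the chromosome surface, read 10.20, 10.13 and 10.12 under DMSO and 10.00, 9.97 and 10.08 under RSL, a difference of -0.13 (adjusted p = 0.238). Top2a, the topoisomerase that untangles sister chromatids, was at -0.03 (95% interval -0.12 to 0.06).

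**Figure D2:**
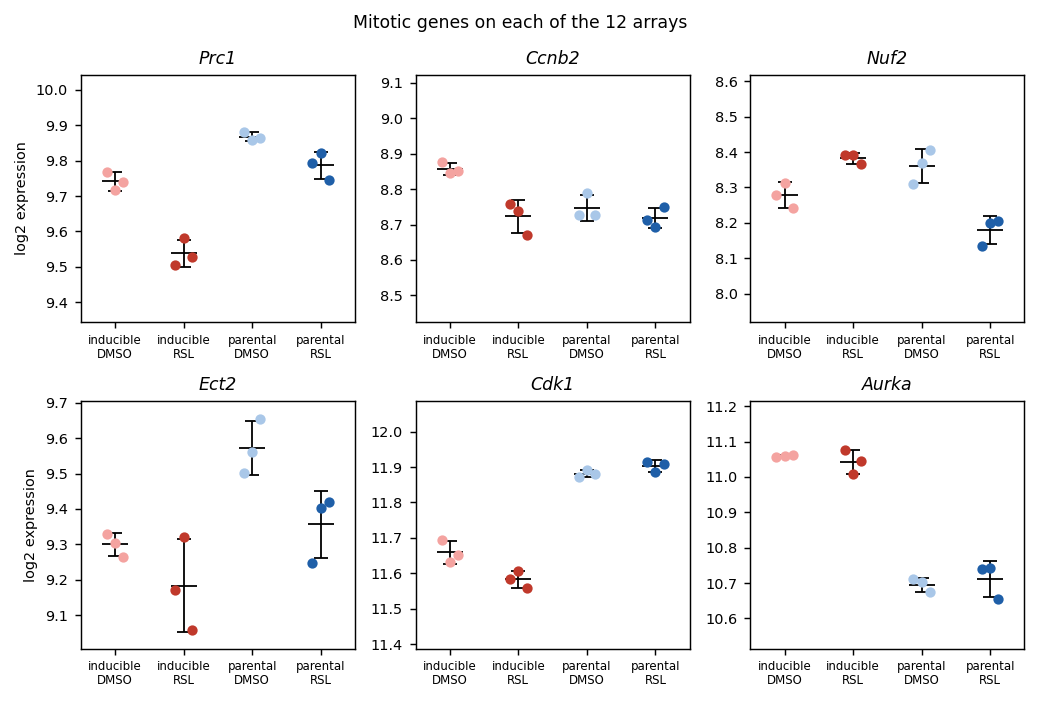
Log2 expression of 6 mitotic genes on each of the 12 arrays, with every array as a point, the group mean as a long bar and 1 SD as the error bar (n = 3 arrays per group). All panels span 0.7 log2 units. Prc1 was lowest on the 3 inducible arrays labelled RSL, Nuf2 was higher under RSL in inducible and lower in parental cells, and Cdk1 and Aurka differed between the lines under both treatments.

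In parental 3T3 cells, which have no construct, RSL changed none of the 47 genes in limma, where 0.0303% of all probe sets were called. At an unadjusted p under 0.05, 11 genes were lower (23.4%, against 4.9% of all probe sets and 7.51% with the lowest 40% left out) and 0 higher (against 4.81%). The median over the 47 genes was -0.03 against 0.01 over all probe sets, and the range was -0.21 to 0.06. In all, 33 of 47 genes (70.2%) were below 0, against 44.4% of all probe sets and 53.5% with the lowest 40% left out. The arrays did not overlap for 11 genes that were lower (23.4%) and for 1 that was higher, against 6.15% and 7.12% of all probe sets. Here too the share without overlap was not taken with the lowest 40% left out. Without parental DMSO replicate 2, 5 genes were lower at an unadjusted p under 0.05 in place of 11, and without parental DMSO replicate 3 or parental RSL replicate 1 there were 6.

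The genes with the smallest p-values in parental cells belonged to the kinetochore and to cytokinesis. Nuf2 read 8.31, 8.37 and 8.40 under DMSO and 8.13, 8.20 and 8.20 under RSL, a difference of -0.18 (standard error 0.04, adjusted p = 0.0958, limma). Its 2 groups of arrays did not overlap. Cenpe, a kinesin that carries chromosomes to the spindle equator, read 8.36, 8.45 and 8.45 against 8.33, 8.18 and 8.27, a difference of -0.16 (adjusted p = 0.271). Ect2 read 9.50, 9.56 and 9.65 against 9.25, 9.40 and 9.42, a difference of -0.21 (standard error 0.06, adjusted p = 0.354). The other cytokinesis genes were all below 0 too, among them Kif20a, a midzone kinesin, at -0.14 (adjusted p = 0.412) and Prc1 at -0.08 (adjusted p = 0.458).

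In the other roles the parental values ran from -0.11 to 0.06. The 6 entry genes ran from -0.05 to 0.04, with Cdk1 at 0.02, Foxm1 at 0.01 and Cdc25b at -0.05. Plk1 was at 0.00, Aurkb at -0.05, Cdc20 at -0.02, Top2a at 0.02 and Mki67 at -0.02, each with arrays that overlapped. Nek2, a centrosome kinase, was at -0.08 and Birc5 at -0.05. Bub1b led the checkpoint genes at 0.04. Fzr1, the other activator of the anaphase-promoting complex, was at 0.06 with all 3 RSL arrays above the DMSO arrays (adjusted p = 0.555). Kif22, a chromosome-arm kinesin, was at -0.11 and Smc4, a condensin subunit, at -0.11 (adjusted p = 0.458 for both).

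**Figure D3:**
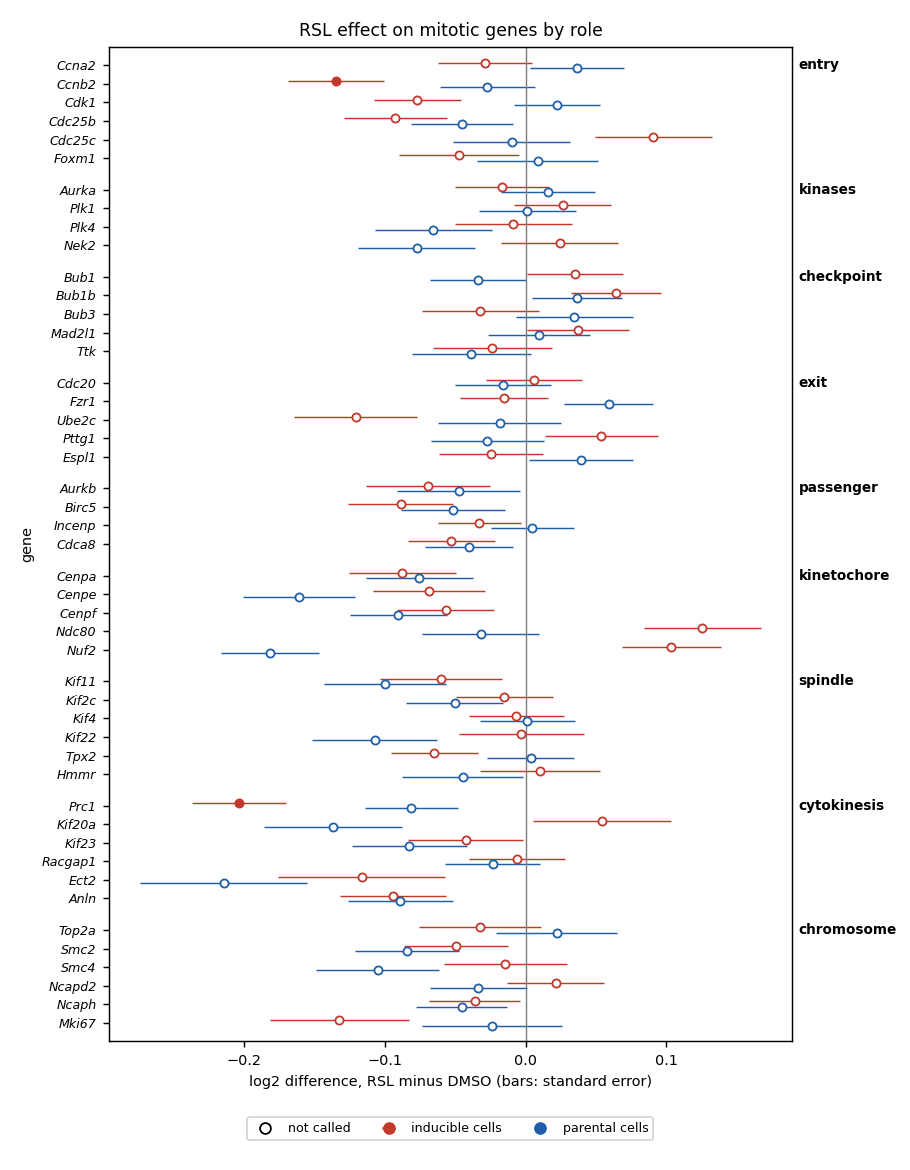
Log2 difference between RSL and DMSO for each of 47 mitotic genes, grouped by role, in inducible (red) and parental (blue) cells, with bars of 1 standard error from limma (3 arrays per group). Filled points were called, which holds for Prc1 and Ccnb2 in inducible cells. Most points of both colours lie left of 0.

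The RSL comparisons of the 2 lines share no arrays, and 23 of 47 genes (48.9%) were below 0 in both, against 23.3% of all probe sets and 29.4% with the lowest 40% left out. Another 3 were above 0 in both. With 72.3% of the genes below 0 in inducible and 70.2% in parental cells, these counts need no agreement of single genes between the lines. For the mean of both effects, 1 of 47 genes was called (2.13%, against 1.3% of all probe sets). With the lowest 40% left out, 3 of 47 genes and 333 of 9885 probe sets were called. The gene called in the fit to all probe sets was Prc1, at -0.14 (standard error 0.02, adjusted p = 0.00538, limma). Cenpe at -0.11 (adjusted p = 0.057) and Ect2 at -0.17 (adjusted p = 0.0667) followed it without passing. In the same comparison Cd14 of the macrophage markers rose by 0.12 (adjusted p = 0.0335), and 1 of the 8 markers was below 0, with 2 higher at an unadjusted p under 0.05. The log2 values of the 8 summed to 53.3 under DMSO and 53.7 under RSL in inducible cells and to 53.4 and 53.7 in parental cells, with the defining genes Ptprc and Itgam near the floor. Their part in the result was not tested. Over all 6 DMSO and 6 RSL arrays, 36 of 47 genes were below 0, with a median of -0.03, against 43.8% of all probe sets and 52.3% with the lowest 40% left out. With quantile normalization repeated, 31 genes were below 0.

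One gene responded differently in the 2 lines. The difference of the RSL effects, inducible minus parental, was called for Nuf2 (2.13% of the genes, against 0.662% of all probe sets). With the lowest 40% left out, 1 of 47 genes and 136 of 9885 probe sets were called. The value of Nuf2 in inducible cells was 0.10, from 8.28, 8.31 and 8.24 under DMSO to 8.39, 8.39 and 8.37 under RSL, whereas that in parental cells was -0.18. The difference between these was 0.29 (standard error 0.05, adjusted p = 0.0108, limma), and it lay between 0.26 and 0.31 and past the threshold whichever array was left out. Ndc80, the partner of Nuf2, had a difference of 0.16 in the same direction (adjusted p = 0.369), and Kif20a one of 0.19 (adjusted p = 0.346). For Prc1 the difference between the lines was -0.12 (adjusted p = 0.385) and for Ccnb2 -0.11 (adjusted p = 0.515), so a larger fall in inducible cells was not shown for either.

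More of the mitotic genes passed the test between the lines than between the treatments. Under DMSO, 22 of 47 genes were called (46.8%, against 29.7% of all probe sets), 8 higher in inducible cells (17%, against 15.2%) and 14 lower (29.8%, against 14.5%). Under RSL, 26 were called (55.3%, against 34.2%), 10 higher (21.3%, against 17.5%) and 16 lower (34%, against 16.8%). All 47 genes are well expressed, and among probe sets with the lowest 40% left out 48.8% were called under DMSO and 52.9% under RSL, with 24 and 27 of the 47 genes called in those fits. Read against those, the share of mitotic genes that differed between the lines was near that of expressed genes as a whole. Markers of other cell types differed between the lines as well, with 1 of 8 macrophage markers higher and 2 lower, 2 of 7 epithelial markers higher and 1 of 7 endothelial markers higher under DMSO. Under RSL, 1 macrophage marker was higher and 2 lower, 1 epithelial marker higher and 2 lower, and 1 endothelial marker higher. Tie1, an endothelial receptor, was at 0.73 (adjusted p = 5.24e-08) and 0.66 (adjusted p = 1.4e-07), and Cd68, a lysosomal macrophage marker, at 0.40 (adjusted p = 3.9e-06) and 0.30 (adjusted p = 6.44e-05). Cdh1, the epithelial cadherin, was at 0.17 (adjusted p = 0.0043) and 0.13 (adjusted p = 0.019) while near the floor. The defining markers Ptprc, Epcam and Pecam1 were near the floor too, and the part of these genes in the line differences was not tested. With array weights, 32 genes were called under DMSO, 10 higher and 22 lower, where 6476 probe sets were called in place of 4885. The median over the 47 genes was -0.06 under DMSO and -0.04 under RSL, against -0.01 and -0.02 over all probe sets.

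The line comparisons under DMSO and under RSL share no arrays. In both, 17 genes were called in the same direction (36.2%, against 23.4% of all probe sets and 39.4% with the lowest 40% left out), which makes 77.3% of those called under DMSO and 65.4% of those called under RSL. No gene was called in opposite directions. Higher in inducible cells under both treatments were Aurka, Cdc20, Cdca8, Foxm1, Kif2c and Nek2. Lower under both were Bub1b, Cdc25b, Cdk1, Ect2, Espl1, Kif11, Ndc80, Plk4, Prc1, Racgap1 and Smc4. The line comparison under a treatment shares its inducible arrays with the RSL comparison in those cells, so a gene's values in both are not independent.

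Among the entry genes, Cdk1 was lower and Foxm1 higher in the inducible line. Cdk1 read 11.87, 11.89 and 11.88 in parental cells under DMSO and 11.92, 11.89 and 11.91 under RSL, so each inducible array lay below each parental array. The difference was -0.22 (standard error 0.03, adjusted p = 3.09e-05, limma) under DMSO, a signal 14.2% lower, and -0.32 (adjusted p = 4.81e-07) under RSL. Foxm1 was at 0.22 (adjusted p = 0.000731) and 0.16 (adjusted p = 0.00634). Cdc25b was at -0.15 (adjusted p = 0.00455) and -0.20 (adjusted p = 0.000447). Ccna2 was lower under RSL (-0.13, adjusted p = 0.00539). Ccnb2 was higher under DMSO (0.11, adjusted p = 0.0196) and at 0.00 under RSL.

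The largest difference between the lines was that of Aurka, the Aurora A kinase of centrosomes and spindle poles. It read 11.06 on all 3 inducible DMSO arrays and 11.08, 11.01 and 11.05 on the inducible RSL arrays, and 10.71, 10.70 and 10.67 and then 10.74, 10.74 and 10.65 in parental cells. The lines did not overlap, and the difference was 0.36 (standard error 0.03, adjusted p = 3.35e-07, limma) under DMSO, a signal 28.7% higher, and 0.33 (adjusted p = 8.54e-07) under RSL. Nek2 was higher too, at 0.16 (adjusted p = 0.00574) and 0.27 (adjusted p = 8.82e-05). Plk4, the kinase that starts centriole duplication, was lower, at -0.26 (adjusted p = 0.000119) and -0.21 (adjusted p = 0.000969). Plk1 was not called, at 0.06 and 0.09.

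Checkpoint and exit genes were split. Bub1b was lower at -0.19 (adjusted p = 0.000192) and -0.16 (adjusted p = 0.000727), and Bub1, a checkpoint kinase, was lower under DMSO (-0.11, adjusted p = 0.0217). Cdc20 was higher at 0.12 (adjusted p = 0.00976) and 0.15 (adjusted p = 0.00283), and Ube2c was higher under DMSO (0.15, adjusted p = 0.012). Espl1, the separase that cuts cohesin, was lower at -0.15 (adjusted p = 0.00493) and -0.21 (adjusted p = 0.000241). Pttg1, the securin gene, was lower under DMSO (-0.17, adjusted p = 0.00373), and Fzr1 was lower under RSL (-0.10, adjusted p = 0.0187). Bub3, Mad2l1 and Ttk, the remaining checkpoint genes, were not called.

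In the passenger complex Cdca8, the borealin gene, was higher at 0.15 (adjusted p = 0.00113) and 0.14 (adjusted p = 0.00209), Incenp, its scaffold, was lower under RSL (-0.10, adjusted p = 0.0135), and Aurkb was at 0.01 and -0.01. At the kinetochore Ndc80 read 8.49, 8.49 and 8.64 in inducible and 8.79, 8.85 and 8.82 in parental cells under DMSO. It was lower at -0.28 (standard error 0.04, adjusted p = 5.63e-05) and, under RSL, at -0.12 (adjusted p = 0.028). Nuf2 was higher under RSL (0.20, adjusted p = 0.000232), as was Cenpe (0.12, adjusted p = 0.0241). Of the spindle motors Kif11, the kinesin that pushes the poles apart, was lower at -0.18 (adjusted p = 0.0037) and -0.14 (adjusted p = 0.0172). Kif2c, a kinesin that takes microtubule ends apart, was higher at 0.13 (adjusted p = 0.0081) and 0.17 (adjusted p = 0.00125). Tpx2 was lower under RSL (-0.09, adjusted p = 0.0394).

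Of the 6 cytokinesis genes, 4 were lower in the inducible line under DMSO, and 3 were lower and 1 higher under RSL. Of all probe sets, 14.5% were lower under DMSO, and 16.8% were lower and 17.5% higher under RSL. With the lowest 40% left out, 2367 of 9885 probe sets were lower under DMSO and 2439 under RSL. With only 6 genes, nothing particular to cytokinesis is read from the counts. Ect2 was at -0.27 (adjusted p = 0.00195) and -0.17 (adjusted p = 0.0321), and Racgap1, its partner at the midzone, at -0.14 (adjusted p = 0.0041) and -0.12 (adjusted p = 0.00925). Prc1 read 9.88, 9.86 and 9.86 in parental cells under DMSO and 9.79, 9.82 and 9.75 under RSL, above every inducible array of the same treatment. Its differences were -0.13 (adjusted p = 0.00745) and -0.25 (adjusted p = 1.8e-05). Kif23, the midzone motor that binds Racgap1, was lower under DMSO (-0.12, adjusted p = 0.0296), and Kif20a was higher under RSL (0.19, adjusted p = 0.00583). Anln was not called, at 0.07 in both. The condensin genes went apart, with Smc4 lower at -0.24 (adjusted p = 0.000353) and -0.15 (adjusted p = 0.0115) and Smc2 higher under RSL (0.12, adjusted p = 0.0222). Mki67 was lower under RSL (-0.23, adjusted p = 0.00188), and Top2a was at 0.03 and -0.02.

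Some of these line differences rested on single arrays. Under DMSO, the calls of Bub1 (without inducible DMSO replicate 1 or 3 or parental DMSO replicate 2 or 3, adjusted p from 0.0512 to 0.0946), Ccnb2 (inducible replicate 1 or parental replicate 1 or 3, 0.0603 to 0.0765), Kif23 (replicate 2 or 3 of either line, 0.0635 to 0.131), Cdc20 (inducible replicate 3, 0.0528) and Ube2c (inducible replicate 1, 0.0618) ended. Under RSL, those of Cenpe (inducible replicate 1 or 2 or parental replicate 2, 0.0611 to 0.134), Ect2 (inducible replicate 1 or 3 or parental replicate 2 or 3, 0.0838 to 0.152), Fzr1 (inducible replicate 2 or parental replicate 1, 0.0717 to 0.0737) and Incenp (inducible replicate 2, 0.0563) ended. So did, under RSL, those of Kif11 (inducible replicate 3 or parental replicate 1 or 2, 0.0575 to 0.0845), Ndc80 (inducible replicate 2 or parental replicate 1, 0.112 to 0.117), Smc2 (inducible replicate 1 or 2 or parental replicate 1, 0.0625 to 0.11), Smc4 (replicate 3 of either line, 0.0581 to 0.0611) and Tpx2 (any inducible replicate or parental replicate 1 or 3, 0.0533 to 0.13).

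**Figure D4:**
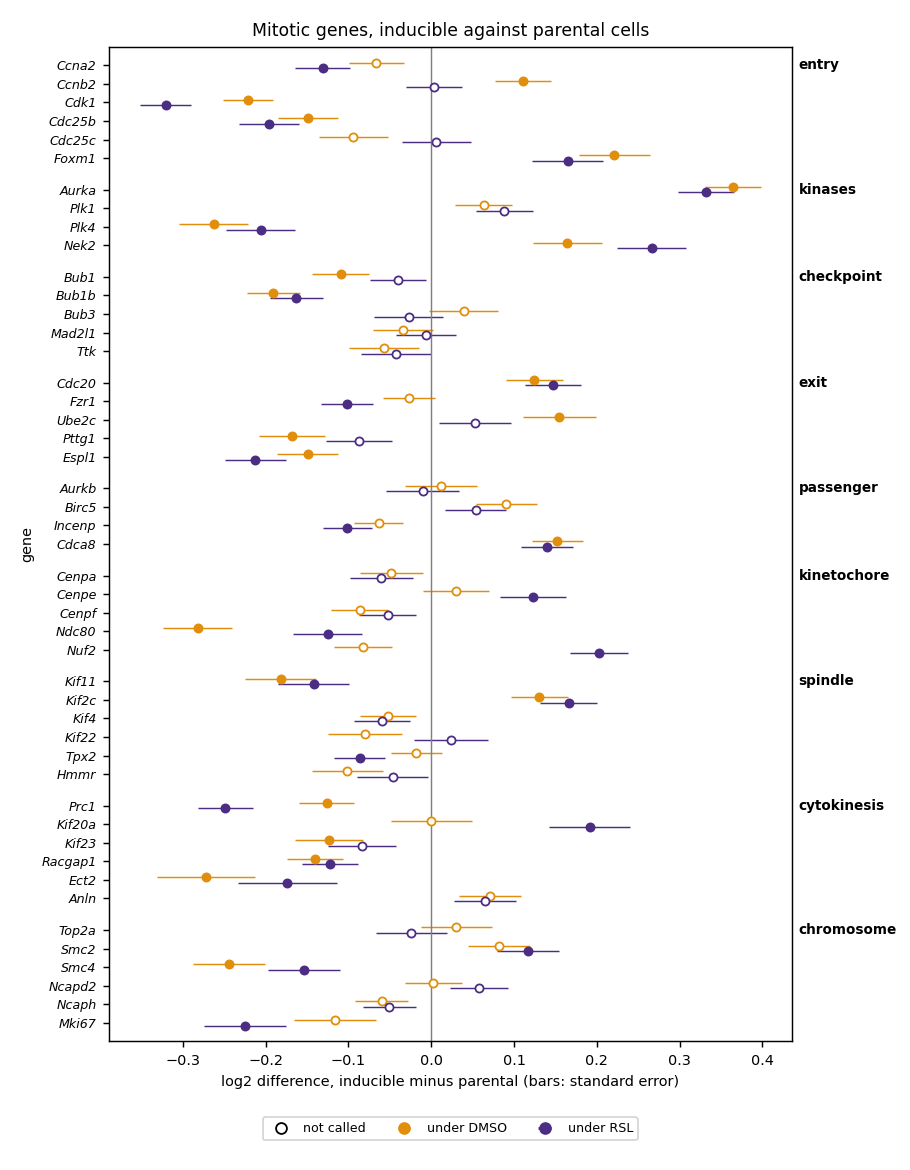
Log2 difference between inducible and parental cells for each of 47 mitotic genes, grouped by role, under DMSO (orange) and under RSL (purple), with bars of 1 standard error from limma (3 arrays per group). Filled points were called. Aurka lies furthest right under both treatments, and furthest left are Ndc80 under DMSO and Cdk1 under RSL.

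Other genes of the same machinery were counted from lists that hold none of the 47. Under RSL in inducible cells, 0 of 24 other kinetochore genes, 0 of 14 other genes of the anaphase-promoting complex, 0 of 14 cohesin and other condensin genes and 0 of 33 other spindle genes were called in limma. At an unadjusted p under 0.05, 4, 1, 1 and 3 of them were lower and 0, 1, 1 and 2 higher. In parental cells none was called either, and at an unadjusted p under 0.05, 5, 1, 3 and 5 were lower and none higher. Of all probe sets, 2.54% were called in inducible and 0.0303% in parental cells. At an unadjusted p under 0.05, 6.04% were lower and 6.29% higher in inducible cells, and 4.9% and 4.81% in parental cells. With the lowest 40% left out, 9.28% were lower in inducible and 7.51% in parental cells. These shares apply to the lists that follow too. For the mean of both lines Cenpw, a centromere histone-fold gene, fell by 0.15 on the log2 scale (adjusted p = 0.0289) and Aspm, a spindle pole gene, fell by 0.12 (adjusted p = 0.0356). Of 20 regulators of the late cell cycle genes none was called under RSL in either line, and at an unadjusted p under 0.05, 4 were lower in inducible and 2 in parental cells. Mybl2, the B-Myb partner of MuvB, was at 0.00 and -0.01, Lin9, a MuvB subunit, at 0.01 and -0.01, and Rbl1, the p107 gene of the repressing DREAM complex, at -0.13 (adjusted p = 0.128) and 0.00. Cdkn1a, the p21 inhibitor of cyclin-dependent kinases, was at 0.01 (adjusted p = 0.951) and 0.03 (adjusted p = 0.738). Of 42 genes of G1/S control and DNA replication, Ccne2, the cyclin E2 gene, rose by 0.29 (adjusted p = 0.0254) and Cdt1, which licenses replication origins, fell by 0.14 (adjusted p = 0.0317) in inducible cells. None of the 42 was called in parental cells, where 4 were lower at an unadjusted p under 0.05.

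Between the lines these lists differed in both directions, under DMSO with 3 of 24 kinetochore genes higher and 11 lower, 5 of 14 genes of the anaphase-promoting complex higher and 2 lower, 3 of 14 cohesin and condensin genes higher and 5 lower, and 3 of 33 spindle genes higher and 8 lower. Under RSL these were 4 and 10, 8 and 2, 4 and 4, and 5 and 8. Over all probe sets, 15.2% were higher and 14.5% lower under DMSO and 17.5% and 16.8% under RSL, and of those with the lowest 40% left out 48.8% and 52.9% were called in either direction, so nothing particular to these lists is read from the counts. Under DMSO the kinetochore genes Dsn1, at 0.28 (adjusted p = 6.94e-06), and Sgo1, the shugoshin that protects centromeric cohesin, at -0.36 (adjusted p = 7.09e-06), went opposite ways. Nusap1, a spindle microtubule gene, was at -0.38 under DMSO (adjusted p = 1.14e-07). Of the 20 regulators 3 were higher and 7 lower under DMSO, with Rbl1 at -0.37 (adjusted p = 1.78e-06). Of the 42 G1/S and replication genes 11 were higher and 13 lower under DMSO. In the mitotic genes with a promoter entry, the median RSL difference in inducible cells was -0.03 for the 30 with either form of the cell cycle homology region and -0.01 for the 9 without. In parental cells these medians were -0.03 and -0.05.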

How the data were processed

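Total RNA of 4 groups of 3 samples was hybridised to Affymetrix Mm430_2.0 arrays. The authors deposited 1 table of log2 values, 1 per Entrez gene of a Custom CDF, after RMA background correction with quantile normalization. No source used here states the log base, which was read from the values. The labels name Trizol for extraction and the methods another reagent. Of 16539 probe sets, 64 controls were left out and 16475 tested, 15780 with 1 symbol and 695 with none. Columns of other samples numbered 0.

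In limma 3.58.1 (R 4.3.3), 4 group means over the 12 arrays were estimated with moderated variances and without a block, and 6 comparisons were adjusted by Benjamini-Hochberg over all probe sets. Exact permutation tests of single genes (scipy 1.17.1, two-sided) cannot go below 0.1 with 3 arrays against 3 and are not printed. The genes, their roles and the other lists were chosen with earlier results of these data known. Named were all called genes, the gene of smallest p per role in each RSL comparison, Cdk1, Plk1, Aurkb, Cdc20, Foxm1, Mki67 and Top2a whatever their values, and up to 3 genes of smallest p per comparison from other lists. Mybl2, Lin9, Rbl1 under RSL and Cdkn1a were named for their roles, with their values known.

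Alternatives were a replicate block, omission of the lowest 40% of mean expression, an intensity trend, array weights, subtraction of array medians, repeated quantile normalization, fits to only the arrays compared, the methods' one-way analysis, and omission of single arrays. Scripts were tested on simulated data. Replicates are labelled biological, but no label tells whether cultures were separate. The p-values therefore cover the spread among arrays, and the number of arrays limits precision.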

Additional observations from a re-analysis of the deposited data

Results flagged for a closer look

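Nuf2, the kinetochore gene, was singled out because the test of the difference itself showed that its response to RSL was not the same in both lines. The log2 difference between RSL and DMSO was 0.10 in inducible and -0.18 in parental cells, and the difference of these was 0.29 (standard error 0.05, adjusted p = 0.0108, limma). On all 3 arrays it was higher under RSL in inducible cells and lower in parental cells, without overlap.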

How the results depend on the processing

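For the 92 results of single genes followed under the alternatives, which are not all genes in all comparisons, 1746 values were computed, of which 1688 kept their direction and side of the threshold, 54 lost their call and 4 gained one, and none reversed, where an uncalled difference smaller than its own standard error was given no direction. Of 52 calls of single genes, 37 were kept under every alternative run on single genes, which leaves out the one-way analysis. Prc1 was among them in each of its 4 comparisons and Nuf2 in both of its own.

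With RSL in inducible cells, the number of mitotic genes called went from 2 to 1 with a replicate block and with only the arrays compared, to 15 under the methods' one-way analysis at nominal p and to 0 after Benjamini-Hochberg, and was 1 to 2 leaving out each array. The 2 called without inducible DMSO replicate 3 were 1 higher (Ndc80) and 1 lower, and array weights called 3, 1 higher (Ndc80) and 2 lower. The probe sets called went from 418 to 736 with array weights and to 1913 and 1 under the one-way analysis, and ranged from 204 to 457 leaving out each array. With RSL in parental cells, array weights called 3 mitotic genes and 106 probe sets, against 0 and 5, and the one-way analysis 9 and 1226 at nominal p and 0 probe sets after adjustment. The 5 probe sets became 8 with the lowest 40% left out, 10 with an intensity trend, 8 with quantile normalization repeated, 2 with only the arrays compared and 1 to 12 leaving out each array. For the mean of both effects, the 1 gene called became 3 with the lowest 40% left out, 2 with an intensity trend, 6 with array weights, 2 with quantile normalization repeated and 1 to 3 leaving out each array. Its 214 probe sets became 110 with a replicate block, 333 with the lowest 40% left out, 685 with array weights and 89 to 293 leaving out each array. Between the lines under DMSO, array weights called 32 mitotic genes in place of 22, 22 of them lower in place of 14, and 6476 probe sets. For the difference of effects, the 109 probe sets became 375 with array weights and 56 to 144 leaving out each array. Quantile normalization repeated moved the median of the mitotic genes from -0.034 to -0.0163 with RSL in parental cells, from 0.017 to -0.00079 for the difference of effects and from -0.042 to -0.0623 between the lines under RSL. Leaving out each array, the median between the lines ranged from -0.0627 to -0.036 under DMSO and from -0.0493 to -0.0224 under RSL.

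Replicate numbers did not mark paired samples, since arrays of the same number did not deviate together in every pair. With the replicate block, 330 probe sets were called in inducible cells and Ccnb2 had an adjusted p of 0.0877. The other calls that ended outside leaving out an array were Cdc20 under DMSO with quantile normalization repeated, Ect2 under RSL with array weights, and Tpx2 under RSL with the replicate block, the median subtracted and only the arrays compared.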
